A study of Mus musculus with 143 samples.

Results

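The genes described here are 10 genes of DNA methylation and imprint protection in the mouse oocyte, chosen by name: Dnmt1, Uhrf1, Dnmt3a, Dnmt3b, Dnmt3l, Tet3, Dppa3, Zfp57, Trim28 and Stpg4. All 10 are listed in the count files of both RNA assays, out of 55740 gene IDs in those files together. Their RNA was followed across stages of the oocyte and across knockouts of Dis3 and Exosc10, the ribonucleases of the nuclear RNA exosome, a complex that trims and degrades RNA. Every RNA library came from 1 oocyte.

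Poly(A) RNA was measured in 71 libraries: oocytes at the germinal vesicle (GV) stage, whose nucleus is still intact, oocytes of the group labelled GV3h, taken at 3 h, and metaphase II (MII) eggs from the oviducts of superovulated females. Each stage had 8 control libraries, and libraries labelled Dis3 cKO (knockout) numbered 15 at GV, 16 at GV3h and 16 at MII. RNA depleted of ribosomal RNA (RiboMinus) was measured in 48 libraries, 8 per group. Control and Dis3 cKO groups were from adult females at GV. The other 4 groups were from mice of postnatal day 20 (p20): control, Dis3 cKO, Exosc10 cKO, and a group labelled dcKO, which is not spelled out in the labels and whose oocytes were low in both Dis3 and Exosc10. The mutant mice were made with CRISPR/Cas9, per the labels. The labels name no Cre driver, no alleles of the controls, no age of the poly(A) females and no link from oocytes to females, so p-values measure the spread between oocytes. CUT&Tag peak lists from pooled oocytes, 3 per group, were used only at the members' start sites.

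The depth was 4843964 to 15412200 gene counts per poly(A) library and 8492102 to 35429028 per RiboMinus library. In the knockout check, Dis3 was at 9.59 to 17.8 CPM (counts per 1000000 gene counts) in GV controls and 0.682 to 5.83 in Dis3 cKO, at 8.90 to 22.6 and 0.698 to 3.24 in adult RiboMinus libraries, and at 6.20 to 20.1, 1.29 to 4.11 and 1.68 to 4.24 in p20 control, Dis3 cKO and dcKO. Exosc10 was at 102 to 138 CPM in p20 controls, 0.347 to 10.5 in Exosc10 cKO and 3.09 to 14.4 in dcKO. Control and knockout did not overlap in any of these, nor for Dis3 at GV3h and MII. The summed level of 10 oocyte markers had group means of 7860.3 to 17555 CPM. The sum of 11 granulosa and cumulus markers was 55.2 ± 10.9 CPM in controls and 29.9 ± 7.20 in Dis3 cKO at GV3h, 82.9 ± 25.8 and 51.3 ± 30.4 at GV, 93.4 ± 25.1 and 39.2 ± 10.3 at MII, 51.6 ± 9.24 and 37.2 ± 11.4 in adult RiboMinus libraries, and 65.6 ± 4.03 in p20 controls against 33.6 ± 7.95 in dcKO. Among them Cyp19a1, the aromatase, was at 40.4 CPM in GV3h controls against 10.4 in Dis3 cKO and at 64.5 against 27.4 at MII, while the cumulus gene Ptx3 was at 0 in every poly(A) library. At GV3h the lower sum in Dis3 cKO was that of Cyp19a1, and the other markers together were not lower there. At MII both Cyp19a1 and the other markers together were lower. The part of these RNAs in the members' differences was not tested. GV control library 1 and MII Dis3 cKO library 15 stood apart in earlier work on these data. In that MII library Dnmt1 was at 242, Dnmt3l at 17.6 and Trim28 at 20.3 CPM, each the lowest of its group. Knockout calls that change without this pair are given both ways.

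As background, DNMT1 copies methylation onto the new DNA strand after replication, and UHRF1 brings it to hemimethylated sites. During oocyte growth DNMT3A, with its catalytically inactive partner DNMT3L, lays down new methylation, including the marks that later distinguish the maternal copies of imprinted genes. After fertilisation TET3 oxidises methylcytosine, DPPA3 shields the maternal genome from it, and ZFP57 binds methylated imprinting control regions and recruits the scaffold protein TRIM28. Oocytes store much of this machinery as mRNA for the embryo.

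On assembly GRCm38.p6 Dnmt1 lies at chr9:20907206-20959888, Dnmt3a at chr12:3801559-3914443, Dnmt3b at chr2:153649411-153687730 and Dnmt3l at chr10:78042287-78063622. Uhrf1 lies at chr17:56303337-56323486, Tet3 at chr6:83362373-83457208, Dppa3 at chr6:122626424-122630271, Zfp57 at chr17:37001163-37010729, Trim28 at chr7:13024152-13031032 and Stpg4 at chr17:87389570-87428081. RefSeq annotates genes that overlap Dnmt1 (Mir7081), Dnmt3a (Dnmt3aos and Gm31623), Dnmt3l (Aire), Tet3 (Mir6374 and B230319C09Rik) and Trim28 (Gm31649). Whether the authors counted by strand is not given in the sources used here, so reads of these pairs cannot be told apart.

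Promoter sequences were taken from RefSeq on assembly GRCm38.p6, whose coordinates are those of mm10. They were found for 9 members with 18 annotated starts, and Dppa3 is named only. Printed is a window of each of the 4 members with a peak of RNA polymerase II (Pol II) at a start in 2 or more lists, namely the one that held a peak in the most lists. Of these, Dnmt1, Dnmt3l and Uhrf1 were called lower in 3 or more of the 7 knockout comparisons, as was Dnmt3a, which had no such peak. The share of all tested genes called lower as often was not counted. Single knockout comparisons called 7.37% to 53.7% of them in either direction. A window runs from 250 bases before to 50 bases after a start in the direction of the gene, and capitals mark every CG, the dinucleotide that DNMT enzymes methylate.
Dnmt1, chr9:20952574-20952873, minus strand: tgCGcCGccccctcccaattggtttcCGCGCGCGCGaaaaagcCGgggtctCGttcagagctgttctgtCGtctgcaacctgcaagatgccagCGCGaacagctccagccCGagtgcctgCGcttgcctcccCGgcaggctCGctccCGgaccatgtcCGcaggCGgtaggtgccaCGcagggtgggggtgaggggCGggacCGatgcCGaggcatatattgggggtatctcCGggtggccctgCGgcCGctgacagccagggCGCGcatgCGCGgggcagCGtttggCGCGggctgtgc
Dnmt3l, chr10:78049592-78049891, plus strand: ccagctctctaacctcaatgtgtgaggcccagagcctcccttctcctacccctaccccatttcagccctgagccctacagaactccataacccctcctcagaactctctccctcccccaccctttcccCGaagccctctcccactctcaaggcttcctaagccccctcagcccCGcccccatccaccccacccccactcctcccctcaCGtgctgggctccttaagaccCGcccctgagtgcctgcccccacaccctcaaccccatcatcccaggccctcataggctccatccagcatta
Uhrf1, chr17:56304063-56304362, plus strand: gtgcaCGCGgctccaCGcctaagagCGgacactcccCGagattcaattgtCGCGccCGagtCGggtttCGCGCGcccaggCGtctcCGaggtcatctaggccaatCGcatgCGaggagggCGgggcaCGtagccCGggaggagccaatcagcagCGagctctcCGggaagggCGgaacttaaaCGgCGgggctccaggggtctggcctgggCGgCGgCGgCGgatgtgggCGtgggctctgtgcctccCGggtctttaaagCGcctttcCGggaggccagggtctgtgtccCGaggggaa
Tet3, chr6:83441629-83441928, minus strand: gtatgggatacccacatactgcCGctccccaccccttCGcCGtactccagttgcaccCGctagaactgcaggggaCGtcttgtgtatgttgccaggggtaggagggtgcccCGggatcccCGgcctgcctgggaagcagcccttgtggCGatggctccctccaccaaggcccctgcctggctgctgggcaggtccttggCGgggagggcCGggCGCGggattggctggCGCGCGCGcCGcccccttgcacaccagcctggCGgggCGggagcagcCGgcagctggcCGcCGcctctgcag
These windows held 33, 4, 33 and 22 CG, against a median of 7 over 32851 promoters of the same length. The upstream-most Dnmt1 start, at chr9:20959839-20960138, held 2. The letters CCAAT, read on both strands, occurred 3 times in the printed Dnmt1 window, 2 times in Uhrf1, 1 time in Tet3 and 0 times in Dnmt3l, and 37.4% of all promoters held them. GGGCGG, read on both strands and containing a CG itself, was in all 4 windows and in 35.7% of all promoters. TAATTG, read on both strands, was in none of the 18 member windows and in 8.00% of all promoters. The counts do not tell which start was used.

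Pol II peaks, counted when they overlapped a window by at least 1 base, lay at the Tet3 start in 3 of 3 lists of p20 controls, 0 of 3 of adult GV controls and 2 of 3 of adult Dis3 cKO. In the printed Dnmt1 window they lay in 1, 2 and 2 of 3 lists of these groups, in that of Dnmt3l in 1, 1 and 0, and in that of Uhrf1 in 1, 0 and 1. At the upstream-most Dnmt1 start they lay in 0, 0 and 1, and at the next start in 1, 1 and 0. The lists differ in length: those of adult GV controls hold 19697 to 35843 peaks, those of p20 controls 74287 to 82446 and those of adult Dis3 cKO 30311 to 122606, and 1.32% to 5.88% of all promoters held a peak. The part of list length in the Tet3 difference was not tested. Of the other members with a window only Stpg4 had a Pol II peak, in 1 list of adult Dis3 cKO. H3K27me3, a repressive histone mark, had a peak at the upstream-most Dnmt1 start in 1 dcKO list. It had one in at least 1 window of Dnmt3l in 1 adult control list, and of Zfp57 in 1 adult and 1 p20 control list. Per list, 10.6% to 20.2% of all promoters held one.

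The RNA counts were scaled with TMM, and a gene was called at a Benjamini-Hochberg adjusted p under 0.05 in edgeR's quasi-likelihood test, adjusted over all genes of a fit. Log2 fold changes (log2FC) are given with their standard errors. In every fit 9 members passed the filter on low counts and Stpg4 did not. In Dis3 cKO against control, 5 of the 9 tested members were called at GV (1 higher, 4 lower; background 21.9% of all tested genes), 5 at GV3h (all lower; 38.6%) and 4 at MII (2 higher, 2 lower; 42.1%). In adult GV RiboMinus libraries 6 were called (1 higher, 5 lower; 28.1%). At p20, in comparisons that share their 8 controls, 0 were called in Dis3 cKO (7.37%; 1 had an unadjusted p under 0.05, DESeq2 called 0 and a fit of only the groups compared called Trim28), 1 in Exosc10 cKO (lower; 7.45%) and 4 in dcKO (1 higher, 3 lower; 53.7%). The shares called were above the background at GV and in adult oocytes, and near or below it at MII and in dcKO. The members' median log2FC was -0.19 at GV, -0.38 at GV3h and -0.09 at MII, beside 0.04, 0.07 and 0.16 over all tested genes. In adult RiboMinus libraries it was -0.46 beside 0.03, and in dcKO -0.15 beside -0.01.

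**Figure D1:**
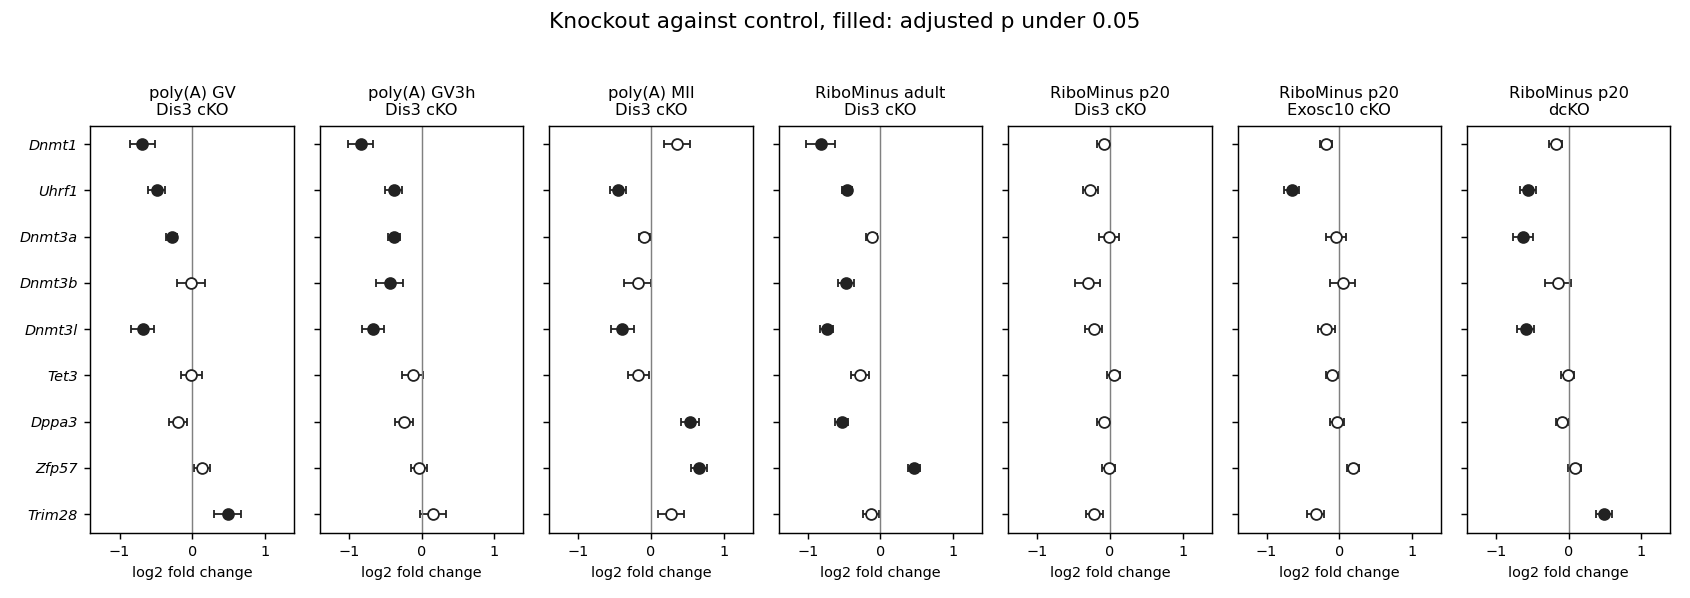
Log2 fold change of each tested member in each knockout against its control (points; bars are SE; filled points have an adjusted p under 0.05). Dnmt1 and Dnmt3l lie below 0 in GV, GV3h and adult RiboMinus oocytes, and Uhrf1 is filled and below 0 in 6 of 7 comparisons.

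Dnmt1 RNA was lower without Dis3 in GV oocytes of both assays. In poly(A) GV controls its lowest, median and highest levels were 1729.9, 1999.8 and 2446 CPM, and in Dis3 cKO 476, 1365 and 1651. The groups did not overlap, with means of 2045 ± 268 (SD, n = 8) and 1269 ± 339 (n = 15) and a log2FC of -0.69 ± 0.17 (edgeR adjusted p = 0.0016). At GV3h the levels were 2007, 2319 and 2799.6 CPM in controls and 689.6, 1329.7 and 1968 in Dis3 cKO. Again no knockout oocyte reached the lowest control, and the log2FC was -0.84 ± 0.17 (edgeR adjusted p = 4.7e-05). The Dis3 effect at GV3h minus that at GV was -0.15 ± 0.25 (adjusted p = 0.853), and 0 of the 9 tested members were called in that contrast (background 2.04%), with 0 at an unadjusted p under 0.05 and 0 called by DESeq2.

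At MII the order of the Dnmt1 groups turned. Control eggs held 748, 823 and 1125 CPM (lowest, median, highest) and Dis3 cKO eggs 242, 1136 and 1762, so the groups overlapped, with the median knockout egg above every control. The log2FC of 0.36 ± 0.18 did not pass the threshold (edgeR adjusted p = 0.0946). Without the pair of libraries that stood apart it was 0.40 and passed (adjusted p = 0.0276), as it did with scaling to the ERCC spike-in counts (0.79, adjusted p = 0.0149). The Dis3 effect at MII minus that at GV was 1.04 ± 0.25 (edgeR adjusted p = 0.00193), in a contrast where 3 of 9 tested members were called, all higher (background 13.2%). On the ERCC scale it was 1.72 (adjusted p = 0.000444), and Dnmt3l (1.07, 0.0246) and Dnmt3a (0.82, 0.00877) also passed. Along the stages, Dnmt1 fell from GV to MII in controls (log2FC -1.20 ± 0.20, adjusted p = 5.1e-07, no overlap), while in Dis3 cKO the difference was -0.15 ± 0.14 (adjusted p = 0.355). On the ERCC scale it was lower at MII in both, by -3.07 in controls and -1.35 in Dis3 cKO, where it then passed (adjusted p = 1.1e-07).

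In adult RiboMinus libraries Dnmt1 stood at 4253, 4723 and 5016 CPM (lowest, median, highest) in controls and at 879, 2832 and 3833 in Dis3 cKO. Every knockout oocyte lay below every control (log2FC -0.82 ± 0.20, edgeR adjusted p = 0.00544). The spread in the knockout followed the tags in the sample titles: AM1713 spanned 879 to 2569.9 CPM and AM1757 3093 to 3833. Each RiboMinus group has a pair of tags with 4 libraries each, and they are not said to mark animals. If the tags do mark animals, n is 2 per group in the RiboMinus data. The p-values over single libraries would then not measure the spread between animals. Without AM1713 the log2FC was -0.44 (adjusted p = 0.000208) and without AM1757 -1.38 (adjusted p = 6.1e-05). Leaving out the control tag AM1758 or AM1759 gave -0.85 and -0.82, with adjusted p of 0.0557 and 0.0587. With counts summed per tag, 2 sums per group, edgeR called 0 genes of any kind here (3577 had an unadjusted p under 0.05). On the ERCC scale the adult values of the other lower members were -1.30 for Dnmt3l, -1.13 for Dppa3, -1.01 for Dnmt3b and -0.99 for Uhrf1, all called and over 1.5 times those with TMM. Gene counts per ERCC count, a measure of RNA captured per oocyte, were also lower in these knockout libraries, at 260.4 ± 78.6 against 403 ± 48.5 (log2 difference -0.68, 2-sided exact permutation p = 0.000932, 0.00326 adjusted over 14 comparisons). With scaling to ERCC counts the Dnmt1 difference was -1.38 (edgeR adjusted p = 0.000307).

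At p20 Dnmt1 did not pass in any knockout. Controls stood at 4874 ± 337 CPM, Dis3 cKO at 4574 ± 383, Exosc10 cKO at 4297 ± 518 and dcKO at 4274 ± 743 (SD, n = 8 each), and the ranges overlapped. The edgeR adjusted p was 0.637, 0.203 and 0.0738, and without dcKO tag 2 the dcKO difference of -0.37 passed (adjusted p = 0.00136). The adult Dis3 effect minus that at p20 was -0.75 ± 0.21 (adjusted p = 0.0146), in a contrast where 4 of 9 tested members were called (1 higher, 3 lower; background 9.32%). None of these 4 calls held with scaling to ERCC counts, where the values were -0.98 for Dnmt1, -0.77 for Dnmt3l, -0.69 for Dppa3 and 0.24 for Zfp57. With counts summed per tag they were -0.75, -0.56, -0.46 and 0.42, and none passed.

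Uhrf1, which brings DNMT1 to its sites, was lower in 6 of the 7 knockout comparisons by call. Its poly(A) levels (lowest, median, highest) were 818, 958 and 1261 CPM in GV controls and 491, 757 and 947 in Dis3 cKO, with a log2FC of -0.49 ± 0.11 (edgeR adjusted p = 0.000625). At GV3h controls stood at 858, 1073 and 1281 CPM and Dis3 cKO at 611, 799 and 1023 (log2FC -0.39 ± 0.11, adjusted p = 0.00411). MII controls had 926, 1359 and 1612 CPM and Dis3 cKO eggs 382, 974 and 1196 (log2FC -0.46 ± 0.11, adjusted p = 0.000585). The ranges of control and knockout overlapped at each poly(A) stage. With scaling to ERCC counts the calls at GV3h (-0.40, adjusted p = 0.156) and MII (-0.06, adjusted p = 0.86) were lost. The Dis3 effect at MII minus that at GV was 0.03 ± 0.16 (adjusted p = 0.937).

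In RiboMinus libraries Uhrf1 separated control and knockout, except in p20 Dis3 cKO. Adult controls held 453, 489 and 578 CPM and adult Dis3 cKO oocytes 279.6, 352 and 407 (log2FC -0.46 ± 0.07, edgeR adjusted p = 9.2e-05). At p20 the levels were 409, 507 and 557 CPM in controls, 258, 310.2 and 379.6 in Exosc10 cKO and 271, 343 and 376 in dcKO, so that neither knockout reached the lowest control. The log2FC was -0.65 ± 0.11 in Exosc10 cKO (adjusted p = 6.2e-05), where Uhrf1 was the single member called, and -0.56 ± 0.11 in dcKO (adjusted p = 3.9e-05). With scaling to ERCC counts the Exosc10 difference was of like size but did not pass (-0.64, adjusted p = 0.0777). In p20 Dis3 cKO, Uhrf1 spanned 291 to 574 CPM and did not pass (log2FC -0.27 ± 0.11, adjusted p = 0.125). The dcKO stood below Dis3 cKO by a log2FC of -0.29 ± 0.11 (adjusted p = 0.0222). That call was lost at like size with no filter on low counts (-0.26, 0.053) and with counts summed per tag (-0.29, 0.105). With scaling to ERCC counts the value was -0.04 and did not pass (adjusted p = 0.882). The difference of dcKO from Exosc10 cKO was 0.09 ± 0.11 (adjusted p = 0.481).

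**Figure D2:**
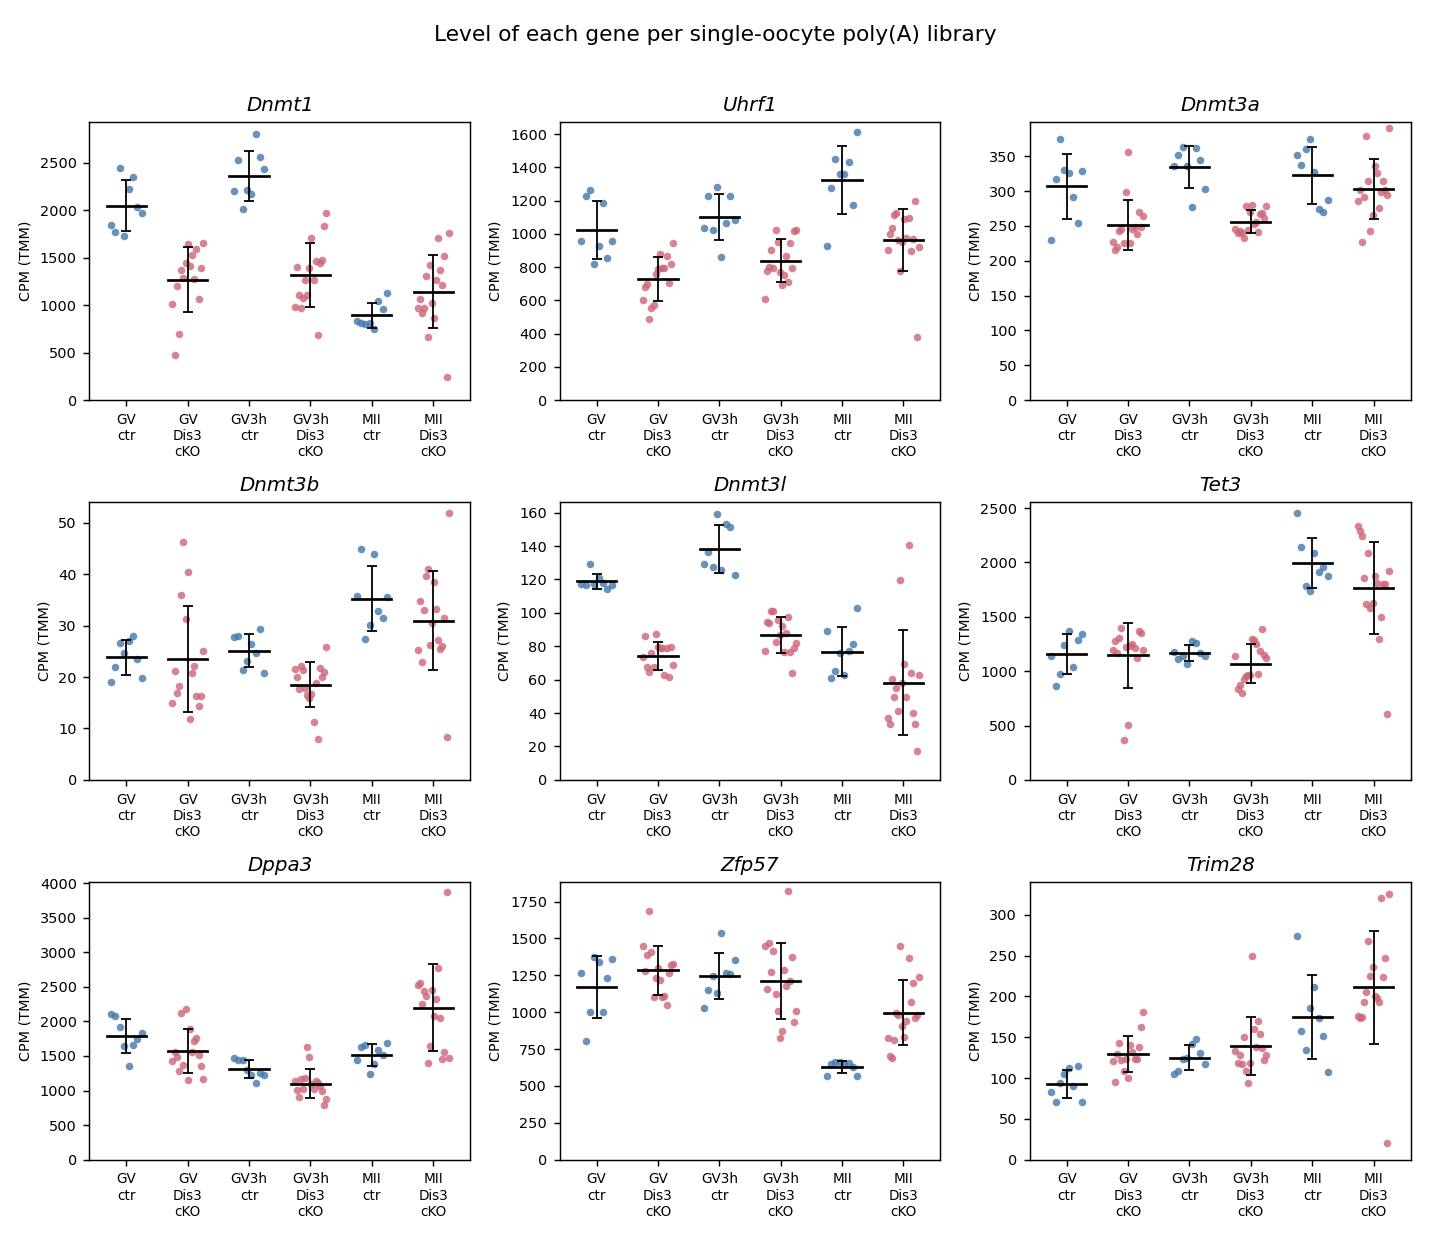
TMM-scaled CPM of the 9 tested members in each poly(A) library (points), by stage and genotype; lines and bars are mean and SD. Dnmt1 and Dnmt3l show no overlap between control and Dis3 cKO at GV and GV3h, and Zfp57 shows none at MII.

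Dnmt3l, the partner that stimulates DNMT3A, separated control and knockout in GV oocytes of both assays. Its poly(A) level was 114, 117 and 129.5 CPM (lowest, median, highest) in GV controls and 61.7, 75.8 and 87.4 in Dis3 cKO, with a gap between the groups. The log2FC was -0.68 ± 0.16 (edgeR adjusted p = 0.00073). At GV3h controls had 122, 133 and 159 CPM and Dis3 cKO 63.8, 87.2 and 101, again apart (log2FC -0.67 ± 0.16, adjusted p = 0.000389). MII groups overlapped, with 60.7, 76.4 and 103 CPM in controls and 17.6, 52.5 and 141 in Dis3 cKO. The MII log2FC was -0.40 ± 0.16 (adjusted p = 0.0363), and with scaling to ERCC counts its sign changed (0.11, adjusted p = 0.755). Fitted on the MII groups alone, the difference of -0.42 did not pass (adjusted p = 0.193).

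Adult RiboMinus libraries showed the same separation, with 91.1, 105 and 124 CPM of Dnmt3l in controls and 49.6, 63.7 and 74.9 in Dis3 cKO. The log2FC was -0.74 ± 0.09 (edgeR adjusted p = 7.0e-06); without tag AM1713 it was -0.62 and without AM1757 -0.91, and both passed. At p20 the dcKO oocytes had 52.2, 73.6 and 103 CPM and the controls 92.8, 117 and 134, overlapping ranges with a log2FC of -0.59 ± 0.12 (adjusted p = 5.4e-05). Dis3 cKO (100.3 ± 9.49 CPM) and Exosc10 cKO (104 ± 20.2) did not pass against the p20 controls (117 ± 14.6), with adjusted p of 0.276 and 0.398. In dcKO, Dnmt3l was lower than in either single knockout, by log2FC of -0.37 ± 0.12 (adjusted p = 0.0075) against Dis3 cKO and -0.42 ± 0.12 (adjusted p = 0.00314) against Exosc10 cKO. With scaling to ERCC counts these were -0.08 and -0.45, and neither passed (adjusted p of 0.797 and 0.0982). With counts summed per tag the difference from Dis3 cKO was -0.39 and did not pass (adjusted p = 0.067). The adult Dis3 effect minus that at p20 was -0.54 ± 0.15 (adjusted p = 0.0175).

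Dnmt3a, the enzyme that DNMT3L stimulates, was lower in GV and GV3h Dis3 cKO and in dcKO. Poly(A) GV controls had 230.1, 321 and 375 CPM (lowest, median, highest) and Dis3 cKO 215, 245 and 357, overlapping ranges with a log2FC of -0.28 ± 0.08 (edgeR adjusted p = 0.00571). With the Dis3 cKO libraries numbered 1 to 8 alone it was -0.27 (adjusted p = 0.0502), and on the ERCC scale -0.56 (0.0132). At GV3h the values were 277, 340.5 and 364 CPM against 233, 254 and 280.2 (log2FC -0.38 ± 0.08, adjusted p = 7.0e-05). Scaled to ERCC counts it was -0.41 (adjusted p = 0.0617). No call was made at MII (-0.09 ± 0.08, adjusted p = 0.363) or in adult RiboMinus libraries, where controls stood at 257 ± 25.8 CPM and Dis3 cKO at 233 ± 21.2 (-0.12 ± 0.07, adjusted p = 0.225), except with scaling to ERCC counts in the latter (-0.64, 0.017). In p20 dcKO, Dnmt3a was at 149 ± 50.3 CPM against 231 ± 27.4 in controls (log2FC -0.62 ± 0.14, adjusted p = 0.000278). This mean covers a split between the title tags: tag 1 spanned 88.9 to 128 CPM, below every control (196 to 262), and tag 2 159 to 213. Without tag 1 the log2FC was -0.27 and did not pass (adjusted p = 0.0509), and without tag 2 it was -1.15 (adjusted p = 2.0e-09). The dcKO was also below Dis3 cKO (-0.61 ± 0.14, adjusted p = 0.000397) and Exosc10 cKO (-0.58 ± 0.14, adjusted p = 0.000764). With counts summed per tag the 3 differences of dcKO, from control, Dis3 cKO and Exosc10 cKO, were -0.65, -0.64 and -0.60 and did not pass (adjusted p of 0.0579, 0.0667 and 0.0868).

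Dnmt3b, the other new-methylation enzyme, had few counts, and its poly(A) call was near the threshold. GV controls had 23.9 ± 3.36 CPM and Dis3 cKO 23.5 ± 10.4 (log2FC -0.02 ± 0.19, edgeR adjusted p = 0.957). At GV3h the means were 25.2 ± 3.18 and 18.5 ± 4.36 (-0.44 ± 0.18, adjusted p = 0.0496), a call lost at like size with no filter on low counts (-0.44, adjusted p = 0.075), with scaling to ERCC counts (-0.44, 0.208) and with the Dis3 cKO libraries numbered 1 to 8 alone (-0.39, 0.0612). Adult RiboMinus controls spanned 22.0 to 31.5 CPM and Dis3 cKO 13.9 to 23.5 (-0.47 ± 0.11, adjusted p = 0.00382; 0.108 without control tag AM1758). At p20 no knockout passed, with adjusted p of 0.339, 0.92 and 0.497 in Dis3 cKO, Exosc10 cKO and dcKO.

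**Figure D3:**
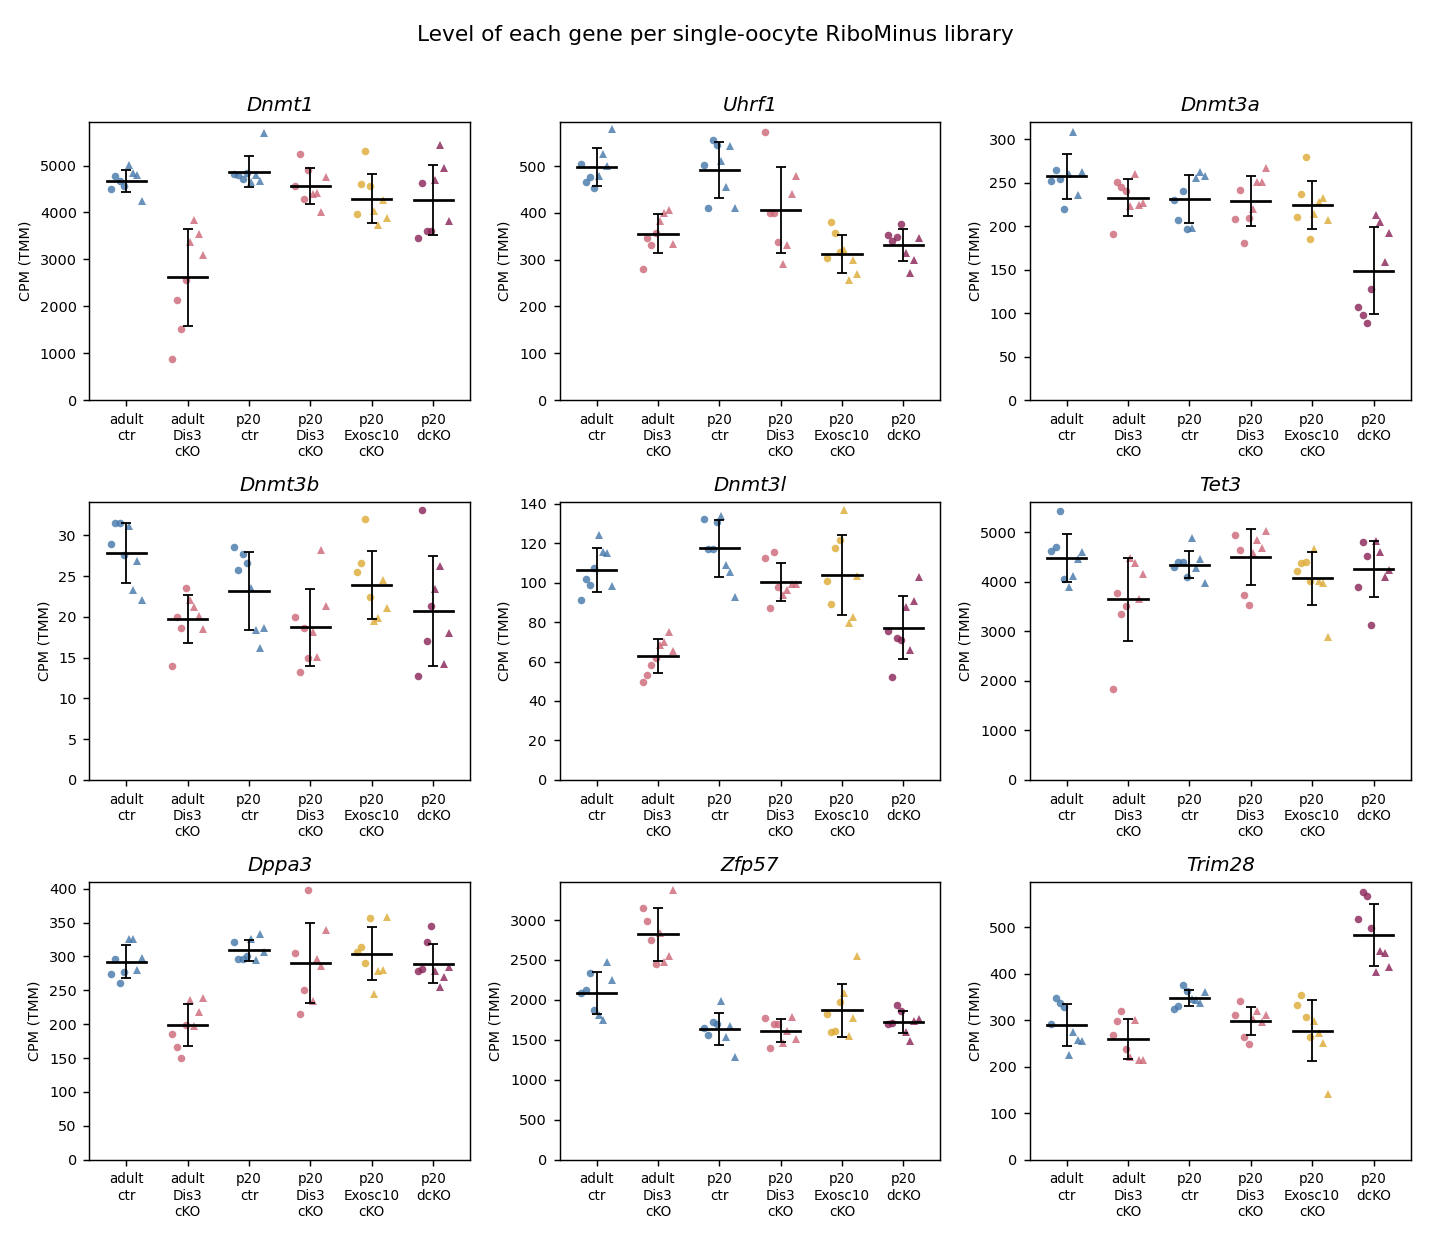
TMM-scaled CPM of the 9 tested members in each RiboMinus library (circles and triangles are the libraries of the pair of title tags in a group); lines and bars are mean and SD, n = 8. Libraries of 1 tag lie lowest for Dnmt1 in adult Dis3 cKO, and in p20 dcKO libraries of 1 tag lie lowest for Dnmt3a and highest for Trim28.

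Tet3, the oxidase of the zygote, did not pass the threshold in any of the 7 knockout comparisons. Its poly(A) means were 1156 ± 182 CPM in GV controls and 1145 ± 299 in Dis3 cKO, 1168 ± 71.6 and 1069.9 ± 181 at GV3h, and 1993 ± 231 and 1765 ± 423 at MII. The 3 log2FC were -0.01 ± 0.14, -0.12 ± 0.14 and -0.17 ± 0.14 (edgeR adjusted p of 0.963, 0.512 and 0.331). Adult RiboMinus controls had 3890.1, 4523 and 5437 CPM and Dis3 cKO 1839.6, 3719 and 4485 (log2FC -0.28 ± 0.13, adjusted p = 0.108), and without tag AM1757 the difference of -0.50 passed (adjusted p = 0.0143), as did that of -0.80 with scaling to ERCC counts (0.00461). At p20 the adjusted p was 0.798, 0.59 and 0.892 in Dis3 cKO, Exosc10 cKO and dcKO.

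Dppa3, the protector of the maternal genome, was lower in adult RiboMinus GV oocytes and higher in poly(A) MII eggs without Dis3. RiboMinus values were 261, 288 and 326 CPM in adult controls and 150.0, 198 and 238 in Dis3 cKO, with no overlap (log2FC -0.53 ± 0.09, edgeR adjusted p = 0.000157). In poly(A) GV oocytes controls had 1358, 1786 and 2112 CPM and Dis3 cKO 1147, 1519.8 and 2179, a difference that did not pass (-0.19 ± 0.12, adjusted p = 0.28) except with scaling to ERCC counts (-0.50, 0.0122). At GV3h it was -0.25 ± 0.12 (adjusted p = 0.0976), and without the pair of libraries that stood apart it passed (-0.30, 0.0221), as it did in a fit of only the groups compared (-0.26, 0.0191). In MII eggs controls had 1236, 1552 and 1685 CPM and Dis3 cKO 1398, 2287 and 3868, so that the median knockout egg stood above every control (0.54 ± 0.12, adjusted p = 0.000312). The Dis3 effect at MII exceeded that at GV by 0.73 ± 0.17 (adjusted p = 0.00199). On the ERCC scale the MII value was 0.84 and the stage difference 1.34 (adjusted p of 1.3e-05 and 3.4e-06). At p20 Dppa3 was at 309 ± 15.4 CPM in controls and at 290.2 ± 59.4, 304 ± 39.2 and 289 ± 28.9 in Dis3 cKO, Exosc10 cKO and dcKO, none of them called (adjusted p of 0.675, 0.905 and 0.453). The adult Dis3 effect minus that at p20 was -0.46 ± 0.13 (adjusted p = 0.0184).

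Zfp57, the reader of methylated imprints, was higher without Dis3 in MII eggs. MII controls were tightly grouped at 568, 648 and 660.0 CPM, and the Dis3 cKO eggs at 691, 973 and 1447 lay above all of them (log2FC 0.66 ± 0.11, edgeR adjusted p = 1.6e-06). At GV and GV3h the differences were 0.13 ± 0.11 and -0.04 ± 0.11 and did not pass (adjusted p of 0.45 and 0.81). The Dis3 effect at MII exceeded that at GV by 0.53 ± 0.16 (adjusted p = 0.0137), but with the Dis3 cKO libraries numbered 1 to 8 alone it was 0.34 and did not pass (adjusted p = 0.204). On the ERCC scale the MII value was 1.07 and the stage difference 1.19 (adjusted p of 1.7e-05 and 0.000847). In adult RiboMinus libraries controls had 1744, 2106 and 2472 CPM and Dis3 cKO 2444, 2791 and 3376, overlapping at the edge, with a higher share in the knockout (0.46 ± 0.09, adjusted p = 0.000563). With scaling to ERCC counts that value was -0.08 (adjusted p = 0.689), so its direction depends on the scale. At p20 Zfp57 was not called in any knockout (adjusted p of 0.951, 0.205 and 0.43), and the adult effect exceeded that at p20 by 0.46 ± 0.12 (adjusted p = 0.0131).

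Trim28, the scaffold that ZFP57 recruits, was higher in dcKO. Its level was 323, 345 and 375 CPM in p20 controls and 403, 473 and 576 in dcKO, without overlap (log2FC 0.49 ± 0.11, edgeR adjusted p = 0.000389). Tag 1 of dcKO spanned 498 to 576 CPM and tag 2 403 to 449. Without tag 1 the difference of 0.29 did not pass (adjusted p = 0.0782), nor did that of 0.39 with scaling to ERCC counts (adjusted p = 0.158). The single knockouts had 299 ± 30.1 CPM (Dis3 cKO) and 277 ± 65.1 (Exosc10 cKO) and were not called (adjusted p of 0.285 and 0.0666), although Exosc10 cKO passed without its tag 1 (-0.53, adjusted p = 0.0121), and Dis3 cKO in a fit of only the groups compared (-0.21, 0.0383). Against them the dcKO was higher by log2FC of 0.70 ± 0.11 (adjusted p = 3.9e-06) and 0.81 ± 0.11 (adjusted p = 3.9e-07), without overlap in either case. The lower levels in dcKO than in the single knockouts did not pass with scaling to ERCC counts. Against Exosc10 cKO they were then of like size (-0.45 for Dnmt3l and -0.60 for Dnmt3a, adjusted p of 0.0982 and 0.0568). Against Dis3 cKO they were smaller (-0.08 for Dnmt3l, -0.04 for Uhrf1 and -0.33 for Dnmt3a, adjusted p of 0.797, 0.882 and 0.299). With counts summed per tag, Dnmt3l and Uhrf1 against Dis3 cKO kept their size (-0.39 and -0.29) but did not pass (adjusted p of 0.067 and 0.105). Nor did Uhrf1 with no filter on low counts (-0.26, 0.053). In these direct comparisons, 4 of 9 tested members were called against Dis3 cKO (1 higher, 3 lower; background 51.5%) and 3 against Exosc10 cKO (1 higher, 2 lower; 49.2%). In poly(A) GV oocytes Trim28 was at 92.7 ± 17.3 CPM in controls and 129.5 ± 22.0 in Dis3 cKO (0.48 ± 0.18, adjusted p = 0.0476). This Trim28 call was lost with scaling to ERCC counts (0.27, adjusted p = 0.495) and, at like size, with no filter (0.47, 0.0819). At MII its difference of 0.28 ± 0.18 did not pass (adjusted p = 0.215), and it did without the pair of libraries that stood apart (0.33, adjusted p = 0.0352) and with scaling to ERCC counts (0.69, 0.0308). At GV3h it was 0.16 ± 0.18 (adjusted p = 0.517). In adult RiboMinus libraries it was -0.13 ± 0.11 (adjusted p = 0.387), and with scaling to ERCC counts -0.62 (0.0371).

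Stpg4, a gene linked to demethylation in the zygote, was near the limit of these counts. It had reads in 2 of 71 poly(A) libraries, both GV3h Dis3 cKO, with 5 reads in all, and in 1 of 48 RiboMinus libraries, a dcKO, with 2 reads. A floor of 3 reads per library corresponds to 0.174 to 0.599 CPM in poly(A) and 0.0844 to 0.323 CPM in RiboMinus libraries. Lower levels could give no read at this depth. These floors cover counting error only.

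Between GV and GV3h few members were called. In controls 0 of the 9 tested members were called by edgeR (background 2.71%; 2 had an unadjusted p under 0.05 and DESeq2 called 0). In Dis3 cKO only Dppa3 was called, with 1102 ± 208 CPM at GV3h against 1569.6 ± 315 at GV (log2FC -0.51 ± 0.10, adjusted p = 0.000192; background 17.3%), and with scaling to ERCC counts its value was -0.04 (adjusted p = 0.824). On that scale Dnmt3l (0.71, 0.00908), Uhrf1 (0.64, 0.00477), Trim28 (0.52, 0.0494) and Dnmt3a (0.49, 0.00602) passed as higher at GV3h in Dis3 cKO. Gene counts per ERCC count were also higher at GV3h than at GV in Dis3 cKO (log2 difference 0.41, permutation test, adjusted p = 0.00328). In a fit of only the groups compared Dnmt3l also passed there (0.22, 0.0144), and with numbers 1 to 8 alone Uhrf1 (0.37, 0.0193) and Dnmt3b (-0.56, 0.0206) did. In controls the Dppa3 difference was -0.46 ± 0.14 and did not pass (adjusted p = 0.0592). In a fit of only the groups compared, Dppa3 (0.00168), Trim28 (0.44, 0.0129) and Dnmt3l (0.23, 0.0409) passed in controls. From GV to MII, 7 of 9 tested members were called in controls (4 higher, 3 lower; background 58.5%) and 8 in Dis3 cKO (6 higher, 2 lower; 63.3%). Of the latter, Dnmt3l (-0.35 ± 0.13, adjusted p = 0.0194) did not pass without the pair of libraries that stood apart (-0.21, 0.119), in a fit of only the groups compared (0.158) or with no filter (0.0719). With numbers 1 to 8 alone, Dnmt3a and Dnmt3b did not pass there (adjusted p of 0.119 and 0.399), while Uhrf1 went from 0.40 ± 0.09 to 0.62 and Zfp57 from -0.36 ± 0.09 to -0.56.

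In MII controls relative to GV, the shares of Trim28 (log2FC 0.91 ± 0.21, edgeR adjusted p = 0.000115), Tet3 (0.78 ± 0.17, 3.6e-05), Dnmt3b (0.56 ± 0.22, 0.0212) and Uhrf1 (0.37 ± 0.13, 0.0128) were higher. Those of Dnmt1 (-1.20 ± 0.20), Zfp57 (-0.90 ± 0.13, adjusted p = 5.4e-09) and Dnmt3l (-0.63 ± 0.19, 0.00267) were lower. Tet3 did not overlap between stages, at 864, 1189.6 and 1365 CPM in GV controls and 1739, 1934 and 2453 in MII controls. These are shares of the captured poly(A) RNA, and the median of all genes moved by -0.27 in this comparison. Here and in the other poly(A) comparisons, a change in amount cannot be told from a change in poly(A) tail length. Gene counts per ERCC count were 46.0 ± 3.43 against 137 ± 16.2 at MII against GV in controls (log2 difference -1.57, 2-sided exact permutation p = 0.000155, 0.000725 adjusted over 14 comparisons) and 55.5 ± 15.3 against 108 ± 30.8 in Dis3 cKO. With scaling to ERCC counts all 9 tested members were lower at MII than at GV, in controls from -0.93 for Trim28 to -3.07 for Dnmt1, with the median gene at -2.12. Trim28, Tet3, Dnmt3b, Uhrf1 and Dnmt3a lay above that median in controls and Dnmt3l, Zfp57 and Dnmt1 below it, on both scales. In Dis3 cKO the ERCC-scaled values ran from -0.51 for Trim28 to -1.56 for Zfp57, with Dnmt1 at -1.35 and the median gene at -1.50.

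**Figure D4:**
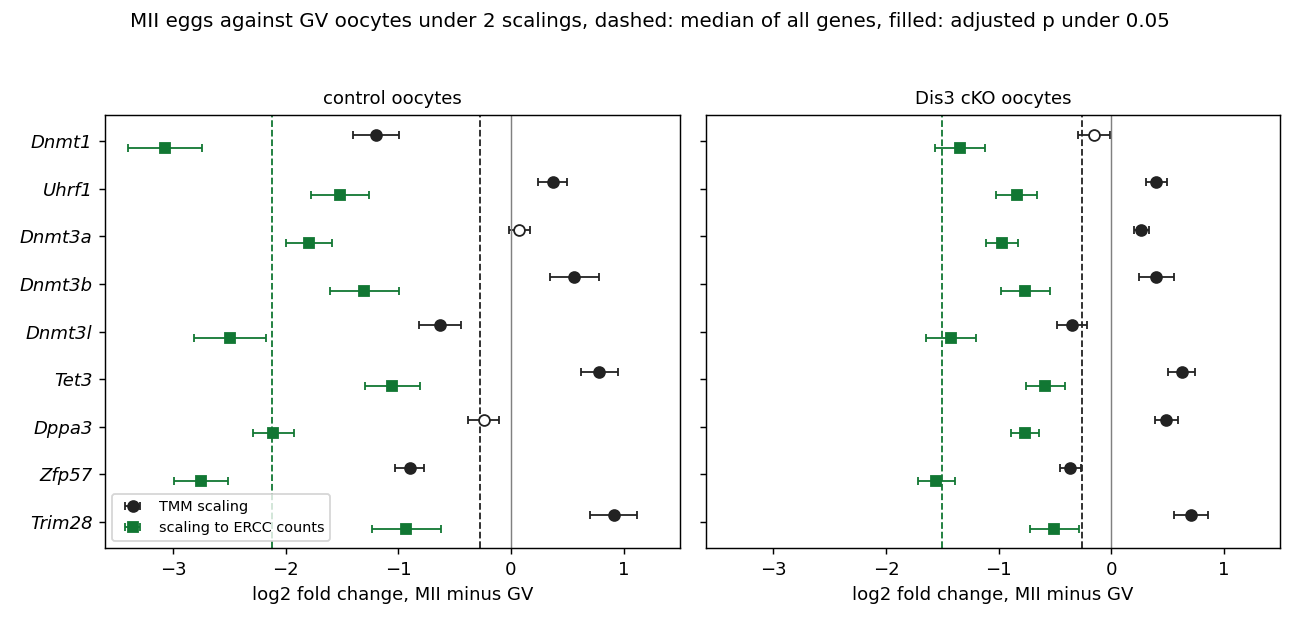
Log2 fold change of the 9 tested members from GV to MII in control and Dis3 cKO poly(A) libraries, with TMM scaling and with scaling to ERCC counts; dashed lines mark the median of all genes. With ERCC scaling every member is below 0, and Dnmt1 is at -3.07 in controls and -1.35 in Dis3 cKO.

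Between ages, Zfp57 was the single member called of 9 tested in RiboMinus controls, at 2089 ± 261 CPM in adult GV oocytes and 1639 ± 198 at p20 (log2FC 0.35 ± 0.09, edgeR adjusted p = 0.00362; background 19.1%). With counts summed per title tag it was 0.36 and did not pass (adjusted p = 0.106). Per ERCC count the adult libraries held fewer gene counts, 403 ± 48.5 against 1267 ± 178 at p20 (log2 difference -1.65, 2-sided exact permutation p = 0.000155). On that scale all 9 tested members were called lower in adults, as were 14797 of all 17267 tested genes. The members ran from -1.34 for Zfp57 to -1.95 for Trim28, among them Dnmt3l (-1.81), Dppa3 (-1.77) and Dnmt1 (-1.76), with the median gene at -1.69. Age and library preparation cannot be told apart here.

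In a list of 44 other genes of the DNA methylation machinery, 42 were tested, and those called lay in both directions. In Dis3 cKO, 9 were called at GV (5 higher, 4 lower), 20 at GV3h (10 higher, 10 lower) and 17 at MII (8 higher, 9 lower), beside 21.9%, 38.6% and 42.1% of all tested genes, and the shares at GV and MII were near these. Mbd4, a glycosylase that repairs deaminated CG sites, was lower at all 3 stages, with log2FC of -0.67 ± 0.18, -0.52 ± 0.18 and -1.22 ± 0.17 (edgeR adjusted p of 0.00342, 0.0145 and 3.3e-08). Tet1 and Tet2, relatives of Tet3, were higher at GV (adjusted p of 0.0262 and 0.0229), Tet1 from 5.15 ± 2.32 CPM in controls to 12.1 ± 8.52 in Dis3 cKO and Tet2 from 8.93 ± 3.63 to 14.4 ± 5.05. In adult RiboMinus libraries 11 were called (3 higher, 8 lower), near the background of 28.1%. Nlrp14 (-0.54 ± 0.09) and Kmt2b (-0.49 ± 0.10) fell most among them (edgeR adjusted p of 0.000152 and 0.000904), and Cdca7l rose most (0.84 ± 0.18, adjusted p = 0.00166).

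At p20 the list had 3 calls without Dis3, of which 2 were higher, 2 without Exosc10, 1 in each direction, and 27 in dcKO, of which 17 were higher, beside backgrounds of 7.37%, 7.45% and 53.7%. Mbd1, a methyl-CG binding protein, was at 5.02 ± 1.29 CPM in controls and rose to 7.90 ± 1.60 in Dis3 cKO (log2FC 0.66 ± 0.20, edgeR adjusted p = 0.0319) and to 17.0 ± 4.84 in Exosc10 cKO (1.75 ± 0.20, adjusted p = 7.7e-08). Nsd1, which writes the histone mark H3K36me2, was lower in dcKO, at 304 ± 135 against 689.8 ± 116 CPM (-1.17 ± 0.18, adjusted p = 2.4e-06). The list's median log2FC in dcKO was 0.22, beside -0.15 for the tested members and -0.01 for all genes.

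Of 52 imprinted genes, 38 to 40 were tested in the knockout comparisons. In Dis3 cKO 6 were called at GV (5 higher, 1 lower), 14 at GV3h (10 higher, 4 lower) and 11 at MII (10 higher, 1 lower), shares below the 21.9%, 38.6% and 42.1% of all tested genes. Nespas, an antisense RNA of the Gnas cluster, was at 1.80 ± 0.617 CPM in GV controls and 7.95 ± 3.93 in Dis3 cKO (log2FC 2.14 ± 0.44, edgeR adjusted p = 0.000129), and it was higher in adult RiboMinus libraries by 2.71 ± 0.51 (adjusted p = 0.000626). Mest was lower at GV by -0.31 ± 0.10 (adjusted p = 0.0152). Adult RiboMinus libraries had 8 calls, 4 in each direction (background 28.1%). At p20 there were 2 calls without Dis3, 1 in each direction, 6 without Exosc10, of which 5 were lower, and 15 in dcKO, of which 8 were higher (backgrounds 7.37%, 7.45% and 53.7%). Gnas was lower in p20 Dis3 cKO by -0.77 ± 0.12 (adjusted p = 3.8e-05). Total RNA of a gene does not show which parental copy it came from. Without known strand, reads of Nespas and of sense RNA that overlaps it cannot be told apart.

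Genes whose levels ran most like a member over the 12 RNA groups were found by the root mean square (RMS) difference of log2(CPM + 1) group means, centred per assay, among 9213 genes with a mean of at least 5 CPM in both assays. For Dnmt3l these were Lhx8 (0.0624), Srebf1 (0.109) and Mettl8 (0.11), against a median of 0.553 over all genes. For Dnmt1 they were Srebf1 (0.178), Cpeb1 (0.179) and Pabpc1l (0.18) (median 0.588), so Srebf1 was among the nearest of both. The nearest of Dnmt3a were Igf2bp2 (0.0636), Sf3b2 (0.0767) and Auh (0.0844), and those of Dnmt3b Cdc34 (0.0765), Scaf1 (0.0795) and Paqr3 (0.0877). For Tet3 they were 1190002N15Rik (0.0741), E330009J07Rik (0.0746) and Lrrc8a (0.0764), for Dppa3 Cops9 (0.128), Fars2 (0.142) and Snx14 (0.143), for Zfp57 Rbm3 (0.103), Bsdc1 (0.134) and Fam192a (0.136) and for Trim28 Rnf44 (0.125), Zfyve1 (0.132) and Prdm4 (0.132). The median over all genes lay between 0.437 and 0.588 for these 8 members.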

How the data were processed

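The deposited files of the authors hold raw counts per gene, 1 file per single-oocyte library. Cutadapt 2.5, STAR 2.7.2a, SAMtools 1.9, HTSeq 0.9.1, SEACR and mm10 are named in the submitters' processing notes, with no order of steps. The CUT&Tag peak lists give each peak's position and the authors' own signal. Counts were tested with edgeR 4.0.16 in R 4.3.3 (TMM, filterByExpr, quasi-likelihood F test, Benjamini-Hochberg), in 1 fit for the 71 poly(A) libraries and in fits of 16 adult, 32 p20 and all 48 RiboMinus libraries. DESeq2 1.42.0, ERCC scaling, no filter, the replicate block and libraries or title tags left out were alternatives. Levels are TMM-scaled CPM. ERCC counts stayed out of the tests, and their total was 34158 to 585335 per poly(A) and 7089 to 192786 per RiboMinus library. Replicates of a group differed by more than sampling noise (lowest chi-square per degree of freedom 2.67 and 11.2). On simulated data a change of 2 on the log2 scale was recovered at 100% in each fit, and a change of 1 at 62% in the poly(A) GV comparison, 42% for adult Dis3 cKO, 47% for p20 Dis3 cKO and 49% for adult against p20 controls. The simulation gave all genes the same spread, so these rates do not give the recovery for a single member. All 10 genes are described, and of the pathway and imprinted lists at most the 2 genes with the largest called change in each direction per comparison. For the members other than Uhrf1 and Stpg4, the 3 genes with the most similar group levels are named, and those of Uhrf1 are not reported here. The genes and lists were chosen with earlier results of these data known. The design text gives 16 GV Dis3 cKO libraries, and 1 was not analysed here.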

Additional observations from a re-analysis of the deposited data

Results flagged for a closer look

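In 5 of 82 groups tested, 1 library lay far from the others of its group, and chance flags about 1 in 20 groups. Dnmt3l was at 129.5 CPM in GV control library 3, where the next was 121 CPM. Dnmt1 was at 5689.6 CPM in p20 control library 2_4, and the next at 4845 CPM. Tet3 was low in adult Dis3 cKO library AM1713_1, at 1839.6 CPM against 3360.1 in the next, and in Exosc10 cKO library 2_4, at 2886 CPM against 3981 in the next. Stpg4 was at 0.14 CPM in dcKO library 1_2 and at 0 in the other libraries of that group, where any read would have met the rule.

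The effect of Dis3 knockout differed between MII and GV by an interaction term for 3 members with TMM scaling. The effect at MII minus that at GV was 1.04 ± 0.25 for Dnmt1 (edgeR adjusted p = 0.00193), 0.73 ± 0.17 for Dppa3 (0.00199) and 0.53 ± 0.16 for Zfp57 (0.0137). With the Dis3 cKO libraries numbered 1 to 8 alone the Zfp57 value was 0.34 and did not pass (0.204). On the ERCC scale these values were 1.72, 1.34 and 1.19, and Dnmt3l (1.07, 0.0246) and Dnmt3a (0.82, 0.00877) passed too. The adult RiboMinus effect minus that at p20 was -0.75 ± 0.21 for Dnmt1 (adjusted p = 0.0146), -0.54 ± 0.15 for Dnmt3l (0.0175), -0.46 ± 0.13 for Dppa3 (0.0184) and 0.46 ± 0.12 for Zfp57 (0.0131). With scaling to ERCC counts these adult minus p20 values were -0.98, -0.77, -0.69 and 0.24, and none passed, nor did any with counts summed per title tag (adjusted p of 0.411, 0.374, 0.389 and 0.309). Gene counts per ERCC count were lower in Dis3 cKO than in control both in adult oocytes (log2 difference -0.68, exact permutation test, adjusted p = 0.00326) and at p20 (-0.35, 0.0395). With ERCC size factors the p20 difference did not pass (-0.26, unadjusted permutation p = 0.0848), while the adult one did (-0.65, 0.00311). In poly(A) libraries gene counts per ERCC count were lower in Dis3 cKO at GV (-0.38, permutation test, adjusted p = 0.0174). The differences at GV3h (-0.18, 0.217) and MII (0.20, 0.479) did not pass.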

How the results depend on the processing

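Scaling to ERCC counts, which keeps differences in RNA captured per oocyte, turned the sign of 13 of 56 called member values. Of those that kept their sign, 17 lost the call. Counts summed per title tag ended 16 of 23 calls, at values of like size. In adult Dis3 cKO these were -0.78 for Dnmt3l, -0.57 for Dppa3, -0.49 for Uhrf1, -0.83 for Dnmt1, -0.50 for Dnmt3b and 0.41 for Zfp57. Per library they were -0.74, -0.53, -0.46, -0.82, -0.47 and 0.46. ERCC scaling turned the sign of Dnmt3l in MII Dis3 cKO (0.11) and of Zfp57 in adult Dis3 cKO (-0.0838), and neither passed then (edgeR adjusted p of 0.755 and 0.689). From GV to MII in controls it gave Uhrf1 -1.52, Trim28 -0.93, Dnmt3a -1.79, Dnmt3b -1.30 and Tet3 -1.05, and in Dis3 cKO Uhrf1 -0.84, Trim28 -0.51, Dnmt3a -0.97, Dnmt3b -0.76, Tet3 -0.59 and Dppa3 -0.77. Between adult and p20 controls it gave Uhrf1 -1.67, Dnmt3a -1.55, Dnmt3b -1.41, Tet3 -1.65 and Zfp57 -1.34. Of 447 alternative values of called members 379 kept the call and direction, 55 lost the call in the same direction and 13 turned. Of 759 of members not called 39 gained a call in the same direction and 5 turned and passed. With DESeq2's Wald test all 56 called values kept the call.

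With the same scaling the count of genes called became 118 for GV3h against GV in controls (471 with TMM), 6434 in Dis3 cKO (3009), 15275 for MII against GV in controls (10179), 5237 for the Dis3 effect at MII minus that at GV (2287), 6843 in adult Dis3 cKO (4305), 364 in Exosc10 cKO (1183), 5015 for dcKO against Exosc10 cKO (7809), 14869 between ages (3294) and 583 for the adult minus p20 Dis3 effect (1610). The split of calls in Dis3 cKO moved at GV from 2358 higher and 1448 lower to 1265 higher and 2317 lower, at MII from 4743 higher and 2572 lower to 6535 higher and 749 lower, in adult oocytes from 2405 higher and 1900 lower to 699 higher and 6144 lower, and at p20 from 574 higher and 597 lower to 124 higher and 844 lower. For dcKO against Dis3 cKO it moved from 4135 higher and 4047 lower to 4289 higher and 1575 lower. From GV to MII it moved from 3950 higher and 6229 lower to 58 higher and 15217 lower in controls and from 4313 higher and 6694 lower to 227 higher and 14311 lower in Dis3 cKO, from GV to GV3h from 199 higher and 272 lower to 66 higher and 52 lower and from 1291 higher and 1718 lower to 6269 higher and 165 lower. Between ages it moved from 1501 higher and 1793 lower to 72 higher and 14797 lower, and for the stage differences of the Dis3 effect from 239 higher and 116 lower to 216 higher and 24 lower at GV3h and from 1613 higher and 674 lower to 5116 higher and 121 lower at MII.

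Fitting only the groups compared gave 4336 calls at MII (7315 otherwise), 2083 for GV3h against GV in controls, 841 for the GV3h minus GV effect (355) and 1408 for MII minus GV. DESeq2 gave 545 for GV3h minus GV. Without GV control library 1 and MII Dis3 cKO library 15 there were 767 and 730 calls in these GV3h contrasts. With counts summed per title tag the calls were 0 in adult Dis3 cKO with edgeR (3577 at an unadjusted p under 0.05), 286 in p20 Dis3 cKO (1171), 174 in Exosc10 cKO, 237 between ages and 70 for adult minus p20. Leaving out a title tag gave 2856 calls in adult Dis3 cKO without AM1713, 6245 without AM1757, 2338 without AM1758 and 2594 without AM1759, and in Exosc10 cKO 381 and 696 without control tag 1 or 2 and 689 without Exosc10 cKO tag 2. The alternatives that leave out a title tag were chosen after seeing the data. Gene counts per ERCC count passed or lost the threshold in GV3h Dis3 cKO (-0.22), GV3h against GV controls (0.26) and p20 Dis3 cKO (-0.26) with ERCC size factors, and in MII Dis3 cKO without the pair of libraries (0.32). The causes were not tested.

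The replicate numbers were not taken as pairing the samples, since the correlation of deviations passed 0.1 in 5 of 8 GV pairs, 0 at GV3h and 0 at MII. With the replicate block the calls numbered 3812 at GV, 6329 at GV3h, 5816 at MII, 1143 in p20 Dis3 cKO, 1106 in Exosc10 cKO and 8412 in dcKO. In poly(A) data this fit also leaves out Dis3 cKO libraries numbered above 8. Of 45 called member values 40 kept the call in it and 5 did not: Dnmt3a and Dnmt3b from GV to MII in Dis3 cKO (edgeR adjusted p of 0.139 and 0.325), Zfp57 for MII minus GV (0.32, 0.244), Dnmt3a at GV (0.0694) and Dnmt3b at GV3h (0.051). The same 5 calls were lost in the fit of numbers 1 to 8 without a block (0.119, 0.399, 0.204, 0.0502 and 0.0612). Of 81 values not called 5 passed with the block. Dppa3 and Trim28 from GV to GV3h in controls and Uhrf1 and Dnmt3b in Dis3 cKO also passed without it, and Trim28 in Exosc10 cKO had 0.0442 with it. No paired analysis was possible for adult RiboMinus oocytes because their groups share no numbers. Depth limits Stpg4, which was under 3 reads in all libraries but 1.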
